A study of Capra hircus with 10 samples.

Results

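Long intergenic non-coding RNAs (lincRNAs) that were assembled from the sequencing reads of goat ovary and carry no name in the reference annotation were examined here. They are the transcripts typed as lincRNA in the deposited transcript table, which gave 2777 lincRNAs among 50146 transcripts after 2 of the 2779 lincRNA rows were left out by the selection rule. The other transcripts were 43766 mRNAs, 1173 annotated lncRNAs, 974 newly assembled antisense lncRNAs and 1454 transcripts of uncertain coding potential (TUCPs). Whole ovaries of the Anhui white goat, obtained from a slaughterhouse, were sequenced by RNA-seq, 5 of them luteal and 5 follicular by the phase of the estrous cycle. The labels name no transgene or treatment and give no ages. Each value is an FPKM, that is, a number of fragments scaled to the length of the transcript and to the size of the library. The labels do not say whether each ovary came from a different goat, so the p-values below measure only the spread between these ovaries.

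LincRNAs are spliced or unspliced transcripts that lie between protein-coding genes and do not encode a protein. As a class they are transcribed at lower levels and in fewer tissues than mRNAs, and some act on the transcription of nearby genes while others have no known function. In the cycling ovary, follicles with granulosa and theca cells produce estrogens and androgens before ovulation, and the corpus luteum that forms afterwards produces progesterone.

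The phase labels were checked with marker genes. All 5 corpus luteum markers tested (limma on log2(FPKM + 0.1), Benjamini-Hochberg adjusted p below 0.05) were higher in the luteal ovaries, with a summed FPKM of 5768 to 7930.3 against 123 to 172 in the follicular ovaries. Endothelial markers were also higher in the luteal phase (4 of 4 tested, summed FPKM 121 to 150.4 against 56.4 to 65.2). Smooth muscle markers (4 of 4, 267 to 487 against 630.0 to 773) and theca cell markers (2 of 2, 17.1 to 69.2 against 139 to 202) were higher in the follicular phase. Among oocyte markers 5 of 9 tested were higher in the follicular phase (summed FPKM 8.65 to 20.3 in luteal and 16.7 to 48.2 in follicular ovaries), as were 3 of 6 granulosa cell markers (92.0 to 639 and 203 to 1054). Of 5 stromal markers 2 were higher in the luteal phase (1929 to 3463 and 1705 to 2415), and so was 1 of 5 macrophage and lymphocyte markers (46.5 to 55.3 and 27.6 to 61.2). None of the 4 tested markers of surface or tubal epithelium passed the test in limma (summed FPKM 8.50 to 19.7 and 10.6 to 43.3), and the blood marker ALAS2 was at or near 0. The part of these cell types in the lincRNA differences below was not tested, and in whole tissue fewer cells of a type and less RNA per cell cannot be told apart.

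The lincRNAs were of low abundance. The highest FPKM that a lincRNA reached in any ovary had a median of 0.413 (quartiles 0.317 and 0.599), and the smallest such value was 0.164. In all, 997 lincRNAs reached an FPKM of 0.5 in at least 1 ovary, 251 reached 1 and 18 reached 10. A mean FPKM of at least 1 over the 10 ovaries was found for 69 lincRNAs, and a mean of at least 10 for 4. The median FPKM of lincRNAs was lower than that of each other class in 10 of 10 ovaries. It lay between 0 and 0.127 per ovary, against 0.0887 to 0.165 for antisense lncRNAs, 0.233 to 0.373 for TUCPs, 0.589 to 0.747 for mRNAs and 0.759 to 0.914 for annotated lncRNAs. These medians cover transcripts above 0 in at least 1 ovary, and over all mRNAs they were 0.436 to 0.555. Among transcripts that reached an FPKM of 0.1 in 5 or more ovaries, lincRNAs still had the lower median in 10 of 10 ovaries against mRNAs, TUCPs and annotated lncRNAs, and in 8 of 10 against antisense lncRNAs.

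A few lincRNAs made up much of the lincRNA signal. The most abundant, LNC_003323, accounted for 20.4 to 35.8% of the summed lincRNA FPKM of an ovary, and the 5 most abundant for 31.4 to 54.5%. The FPKM of LNC_003323 was 243, 165, 226, 168 and 174 in luteal ovaries 1 to 5, and 382, 261, 338, 260.1 and 289.8 in follicular ovaries 1 to 5. Every follicular ovary was above every luteal ovary, and the log2 difference, luteal minus follicular, was -0.65 (SE 0.15, limma adjusted p = 0.0134). The call was lost on the TPM scale (-0.55, limma adjusted p = 0.0522). LNC_000949, the next in rank, had 17.2, 15.1, 107, 173 and 145 FPKM in the luteal ovaries and 57.9, 51.2, 41.6, 51.6 and 36.8 in the follicular ovaries. Luteal ovaries 1 and 2 thus lay below, and 3 to 5 above, the whole follicular range, and the phases did not differ beyond this spread (log2 difference 0.31, SE 0.69, limma adjusted p = 0.796). The TUCP assembled at the same locus, TUCP_000379, was at 8.17, 14.0, 105, 55.9 and 49.8 FPKM in luteal ovaries 1 to 5, also lowest in 1 and 2.

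The 3 steadiest lincRNAs were chosen by their spread. LNC_000829 had the smallest spread of those with a mean FPKM of at least 1 (SD 0.24 on the log2 scale over the 10 ovaries). LNC_000829 was at 6.78, 5.32, 4.65, 5.11 and 5.46 FPKM in the luteal ovaries and 7.0, 7.68, 7.18, 6.83 and 6.46 in the follicular ovaries. These ranges overlapped, and the difference of -0.37 (SE 0.11, limma adjusted p = 0.0494) was just inside the threshold and lost the call under most alternative settings. LNC_002540 had 1.98, 2.30, 1.47, 1.89 and 1.61 FPKM in the luteal and 1.58, 1.99, 2.00, 2.67 and 1.70 in the follicular ovaries. LNC_003182 lay between 1.22 and 2.07 FPKM in the luteal and between 1.4 and 2.33 in the follicular ovaries. Neither was called (differences of -0.09, SE 0.19, and -0.18, SE 0.21, limma adjusted p = 0.783 and 0.609).
LNC_000138 was called, with 3.96, 3.88, 4.39, 3.13 and 4.07 FPKM in the luteal and 6.66, 5.45, 5.72, 4.80 and 5.28 in the follicular ovaries (difference -0.51, SE 0.13, limma adjusted p = 0.0206), a call lost on the TPM scale (-0.42, limma adjusted p = 0.0919). LNC_000890 ranged from 2.90 to 13.3 FPKM in the luteal and from 2.67 to 14.4 in the follicular ovaries, and its phases overlapped throughout.

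LincRNAs were detected in fewer ovaries than other transcripts. Of the 2777 lincRNAs, 353 (12.7%) had an FPKM above 0 in 1 ovary and 481 (17.3%) in all 10. The share detected in all 10 ovaries was 30.5% for antisense lncRNAs, 55.4% for TUCPs, 64.1% for mRNAs and 81.5% for annotated lncRNAs. Follicular ovaries held more lincRNAs seen in that ovary only (71, 61, 29, 52 and 39 in follicular ovaries 1 to 5) than luteal ovaries (18, 28, 28, 14 and 13). The highest of these were LNC_002475, at 4.99 FPKM in luteal ovary 3, LNC_000702, at 1.55 FPKM in follicular ovary 2, and LNC_002749, at 1.17 FPKM in luteal ovary 1. Each was listed at 0 in the other 9 ovaries. An exact 0 in an FPKM table can be a failed estimate as well as an absence of fragments.

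**Figure D1:**
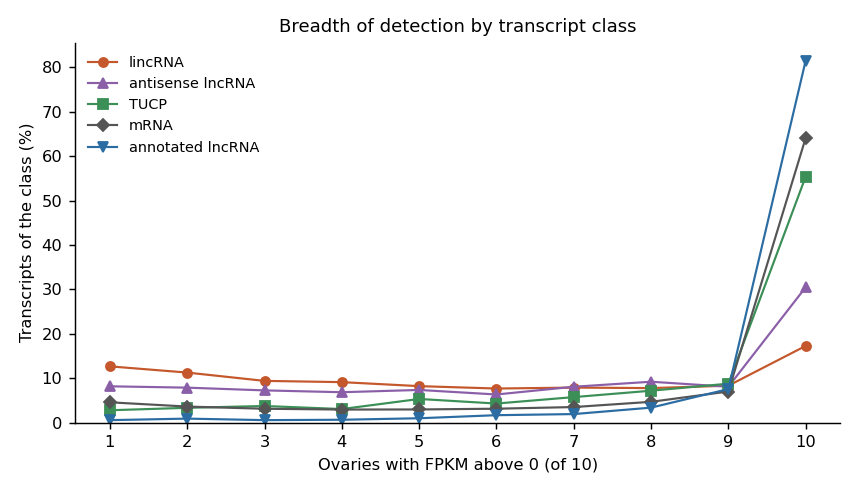
Share of the transcripts of each class (%, vertical axis) by the number of ovaries, of 10, in which the FPKM was above 0 (horizontal axis), among transcripts above 0 in at least 1 ovary. LincRNAs are spread over all numbers of ovaries and reach 17.3% at 10 ovaries, where mRNAs reach 64.1%.

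More lincRNAs were detected in the follicular phase. An FPKM above 0 was found for 1314, 1435, 1454, 1298 and 1334 lincRNAs in luteal ovaries 1 to 5, and for 1906, 1773, 1549, 1684 and 1641 in follicular ovaries 1 to 5. The 2 ranges did not overlap. The means were 1367 ± 72.2 and 1711 ± 136 (SD, n = 5 each; two-sided exact permutation test, p = 0.00794, the smallest that 5 against 5 allows; 0.0119 after Benjamini-Hochberg adjustment over 3 values per ovary). The number of all transcripts above 0 was also higher in the follicular ovaries (38433 to 40259 against 36980 to 37707), and lincRNAs were 4.36 ± 0.263% of them in the follicular and 3.65 ± 0.179% in the luteal phase. At a detection level of 0.5 FPKM, the means were 189.6 ± 25 in the luteal and 305 ± 73.7 in the follicular ovaries. The lincRNAs were themselves assembled from the reads of these ovaries, so the test cannot separate their detection from their assembly.

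Relative sequencing depth, as read from the FPKM values, moved with phase. The table gives no counts, but the smallest steps between low FPKM values give what 1 fragment is worth in each ovary. The inverse of this value was taken as the depth relative to follicular ovary 1. Without mapped totals, it could not be checked against the number of reads. This relative depth was 0.668 to 0.768 in the luteal ovaries, 1.00, 1.02 and 0.951 in follicular ovaries 1, 2 and 4, and 0.754 and 0.677 in follicular ovaries 3 and 5. Restricted to ovaries of like depth, that is, the 5 luteal ovaries and follicular ovaries 3 and 5, the means were 1367 ± 72.2 and 1595 ± 65.1 lincRNAs (exact permutation test, 5 against 2, p = 0.0476, the smallest possible).

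**Figure D2:**
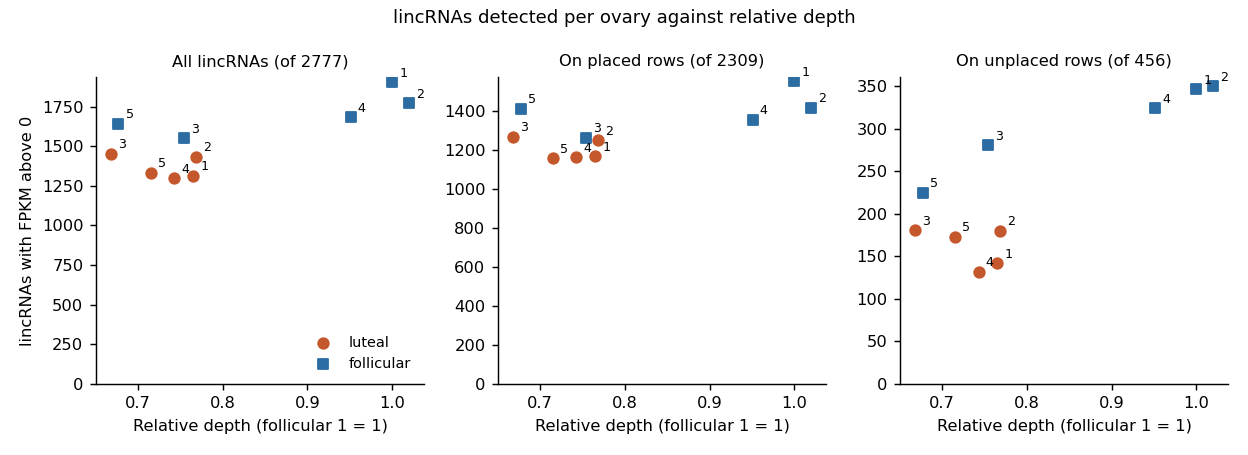
Number of lincRNAs with an FPKM above 0 (vertical axis) against relative sequencing depth (horizontal axis, follicular ovary 1 set to 1) for each ovary, numbered by replicate, for all lincRNAs (left), those on rows of placed chromosomes (middle) and those on rows of unplaced sequence (right). On unplaced rows the follicular ovaries lie between 225 and 350 and the luteal ovaries between 132 and 181.

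The lincRNA share of the whole signal differed less clearly. LincRNAs made up 0.180, 0.148, 0.210, 0.166 and 0.183% of the summed FPKM in luteal ovaries 1 to 5 and 0.265, 0.188, 0.189, 0.224 and 0.271% in follicular ovaries 1 to 5. The ranges overlapped. The means were 0.178 ± 0.0227% and 0.227 ± 0.0400% (n = 5 each, exact permutation test, p = 0.0397, adjusted p = 0.0397 over 3 values). This difference missed the threshold when luteal ovary 1, 2, 4 or 5 or follicular ovary 1, 4 or 5 was left out (exact permutation p = 0.0794 to 0.103). The median lincRNA FPKM was 0, 0.0313, 0.0414, 0 and 0 in the luteal ovaries and 0.127, 0.0852, 0.0587, 0.0667 and 0.0856 in the follicular ovaries, without overlap.

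The luteal and follicular phases were then compared lincRNA by lincRNA. The test could be made for 1087 of the 2777 lincRNAs (39.1%), namely those that reached an FPKM of 0.1 in 5 or more ovaries, and the other 1690 were not tested. Of the 1087, 190 were called at a limma adjusted p below 0.05 (17.5%), where 17.3% of all 32842 transcripts tested were called. Follicular-higher calls numbered 132 (12.1%, against 9.82% of all transcripts) and luteal-higher calls 58 (5.34%, against 7.47%). When a luteal ovary was left out and the filter was applied again to the other 9, the luteal-higher calls fell to 25 to 34 and the follicular-higher calls were 88 to 137. Without a luteal ovary, that filter of 5 ovaries no longer admits a lincRNA through the luteal phase alone. Over the same 1087 lincRNAs, the luteal-higher calls were 46 to 56 and the follicular-higher calls 90 to 138. Without a follicular ovary and with the filter reapplied, the follicular-higher calls were 85 to 115. The luteal-higher share of the lincRNA calls was 30.5%, and it was 40.6% after quantile normalization (69 luteal-higher and 101 follicular-higher). The median log2 difference over the tested lincRNAs was -0.45, where that over all transcripts tested was -0.15. After a shift to a common median these were -0.36 and -0.05. The phase ranges did not overlap for 148 of the tested lincRNAs (13.6%, against 15.3% of all transcripts), 139 of them called.

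Calls were common in the other classes too. The share called was 17.4% for mRNAs, 17.5% for TUCPs, 17.1% for annotated lncRNAs and 12% for antisense lncRNAs. Called lincRNAs were mostly weak transcripts, as were the tested lincRNAs as a whole. The mean FPKM was below 0.5 in 153 of 190 called and in 928 of 1087 tested, and at least 1 in 16 called and in 63 tested. Their differences were large on the log2(FPKM + 0.1) scale, on which the change of a weak transcript is compressed. The difference was at least 1 in size for 177 and at least 2 for 41, with a median of 1.63 for luteal-higher and -1.54 for follicular-higher lincRNAs. With follicular ovaries 3 and 5 alone against the luteal ovaries, 51 of the 1087 lincRNAs were called (4.69%, against 7.44% of all transcripts), 24 luteal-higher and 27 follicular-higher (4.18 and 3.26% of all transcripts). In that comparison 42 of the 190 lincRNAs kept the call. Of the 28 called lincRNAs named here, 9 lost the call there, with 2 follicular ovaries in place of 5, and their differences remained of similar size in most. The difference was 3.10 for LNC_002479, 1.88 for LNC_001821, -3.35 for LNC_003643, -2.17 for LNC_003558, -2.26 for LNC_001464 and -3.76 for LNC_003604. It was -0.70 for LNC_003323, -0.50 for LNC_000138 and -0.32 for LNC_000829 (limma adjusted p = 0.0504 to 0.276 over the 9).

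The calls were then counted by the place of the lincRNA in the table. The rows of annotated genes follow chromosome order in the table, in 31 runs that match the 31 chromosome labels of the RefSeq annotation of ARS1.2, and the last of these holds sequence not placed on a chromosome. The lincRNA rows lie between those of annotated genes, so a lincRNA was given the chromosome of its flanking rows. Accordingly, 2309 lincRNAs lay on rows of placed chromosomes, 456 (16.4%, from 407 loci) on unplaced rows, and 12 at a boundary. The table holds no positions, so no coordinates are given.

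On unplaced rows, 66 of 178 tested lincRNAs were higher in the follicular phase (37.1%) and 1 was higher in the luteal phase (0.562%). On placed rows, 66 of 904 were higher in the follicular phase (7.30%) and 57 in the luteal phase (6.31%). The filter admits a lincRNA through the 5 follicular ovaries alone, and the median FPKM on unplaced rows was 0 in every luteal ovary, so the share on unplaced rows is a description of lincRNAs chosen in part by their follicular level. With the filter applied within the ovaries of like depth, 1 of 97 lincRNAs on unplaced rows was called. On placed rows, 27 of 809 were luteal-higher and 13 follicular-higher there. That filter asked for 0.1 FPKM in 4 of 7 ovaries, 2 of them follicular. It admits a lincRNA through luteal ovaries alone but not through follicular ovaries alone, so these counts cannot compare the directions or the rows. Over the lincRNAs of the main test at like depth, 11 of 178 on unplaced rows (6.18%) and 15 of 904 on placed rows (1.66%) were follicular-higher. On placed rows the balance of the directions also turned under other scalings, with 61 luteal-higher and 50 follicular-higher calls after a shift to a common median, 67 and 49 after quantile normalization and 53 and 42 on the TPM scale, and with 24 and 15 over the 904 at like depth. In the main test the unplaced rows held 50.0% of the follicular-higher lincRNAs. The median difference was -1.24 on unplaced and -0.35 on placed rows, and without the filter it was -0.78 over all 456 and -0.34 over all 2309. For the other classes of transcript on unplaced rows, the numbers called in each direction were closer, and the difference between the classes was not tested. Of 753 mRNAs tested there, 58 were luteal-higher (7.70%) and 71 follicular-higher (9.43%), and of 133 TUCPs 7 and 6. Of 55 annotated lncRNAs 1 and 3 were called, and of 15 antisense lncRNAs 0 and 1.

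The 67 calls on unplaced rows came from 66 loci and had a median mean FPKM of 0.263, and in 46 of them the phase ranges did not overlap (139 of 190 over all called lincRNAs). The exception in direction was LNC_003304, with 0.165, 0.619, 0.270, 0.174 and 0.634 FPKM in the luteal ovaries and 0.0277, 0.0353, 0, 0.0675 and 0 in the follicular ovaries (difference 1.79, SE 0.35, limma adjusted p = 0.00714).

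**Figure D3:**
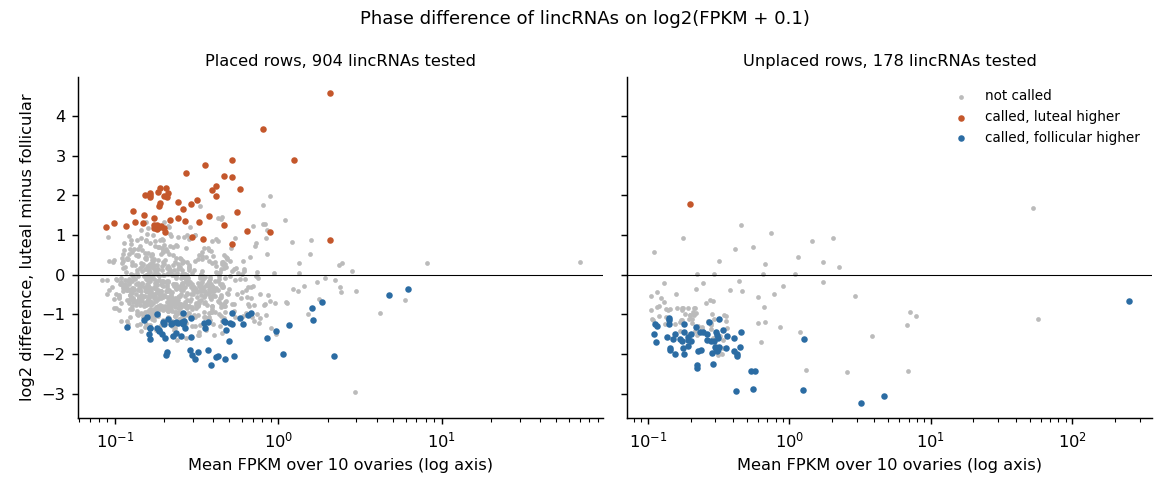
Log2 difference, luteal minus follicular, on the log2(FPKM + 0.1) scale (vertical axis) against the mean FPKM over 10 ovaries (log axis) for each tested lincRNA on placed rows (left, 904) and unplaced rows (right, 178). Colored points passed the adjusted p threshold; on unplaced rows 66 of the 67 lie below 0.

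Detection per ovary was counted over all lincRNAs, without the filter of the test. The lincRNAs were assembled from the reads of these same ovaries, so the counts are not free of that choice. Of the 456 lincRNAs on unplaced rows, 142, 180, 181, 132 and 173 were above 0 in luteal ovaries 1 to 5, and 347, 350, 281, 324 and 225 in follicular ovaries 1 to 5. The phases did not overlap, with means of 162 ± 22.9 and 305 ± 52.7 (n = 5 each). On placed rows the counts overlapped, with 1155 to 1267 in the luteal and 1261 to 1552 in the follicular ovaries (1199.8 ± 54.1 and 1399 ± 106). Relative depth moved with these counts in part. Follicular ovary 3, whose depth lay within the luteal range, had 281 unplaced lincRNAs, and follicular ovary 5, the least deep follicular ovary, had the lowest follicular count of 225. With only these 2 follicular ovaries in the comparison, 11 of the 178 tested lincRNAs on unplaced rows were follicular-higher (6.18%, against 3.26% of all transcripts) and 0 luteal-higher, and their median difference was -0.89. These 178 include lincRNAs that passed the filter through the deeper follicular ovaries. Over the 97 tested with the filter applied within the 7 ovaries, the 1 call was follicular-higher and the median difference was -0.95. That filter asked for 4 of the 7 ovaries and cannot admit a lincRNA through the 2 follicular ovaries alone. The fall to 1 call therefore cannot be separated from the filter. What sets these lincRNAs apart from the mRNAs of the same rows was not tested.

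The luteal-higher lincRNAs with the largest differences lay on placed rows. LNC_000233 had the largest, with 3.66, 7.99, 2.00, 3.33 and 3.16 FPKM in luteal ovaries 1 to 5 and 0, 0.0299, 0, 0.00595 and 0.538 in follicular ovaries 1 to 5. Luteal ovary 2 and follicular ovary 5 were the highest of their phases, and the ranges did not overlap. Its difference was 4.59 (SE 0.56, limma adjusted p = 0.000494). Its row lies between KCNE4, a regulatory subunit of potassium channels, and ACSL3, which activates long-chain fatty acids. Summed over its transcripts, KCNE4 was at 38.2, 62.0, 44.3, 70.4 and 67.7 FPKM in the luteal and 1.71, 2.75, 1.38, 1.46 and 1.92 in the follicular ovaries (difference 4.86, SE 0.21, limma adjusted p = 4.59e-08). ACSL3 was at 20.9 ± 3.33 and 18.7 ± 3.14 FPKM (n = 5 each) and was not called (difference 0.16, limma adjusted p = 0.351).

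LNC_002307 and LNC_002306 were assembled at 1 locus. LNC_002307 was at 2.27, 1.76, 0.988, 1.2 and 1.63 FPKM in the luteal ovaries, and in the follicular ovaries it was at 0.208 in ovary 2 and at 0 in the others (difference 3.68, SE 0.38, limma adjusted p = 0.000179). LNC_002306 was at 0.615, 1.02, 0.265, 1.89 and 1.26 FPKM in the luteal and at 0 to 0.0586 in the follicular ovaries (difference 2.89, SE 0.43, limma adjusted p = 0.00148). All luteal ovaries exceeded all follicular ovaries for both. The flanking genes were SOCS3, an inhibitor of cytokine signaling, and the unnamed gene LOC102179594, and both were also higher in the luteal phase. SOCS3 was at 51.9 ± 11.5 and 15.3 ± 8.24 FPKM (difference 1.89, SE 0.31, limma adjusted p = 0.000767) and LOC102179594 at 18.7 ± 8.42 and 2.98 ± 0.871 (difference 2.55, SE 0.28, limma adjusted p = 4.98e-05).

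LNC_001737 was at 0.934, 0.974, 0.373, 0.725 and 0.489 FPKM in the luteal ovaries and at 0 to 0.0459 in the follicular ovaries (difference 2.76, SE 0.29, limma adjusted p = 0.000179). It lies beside FAM110B, which was also higher in the luteal phase (11.8 ± 2.30 against 5.26 ± 0.651 FPKM, difference 1.14, limma adjusted p = 0.000180), and UBXN2B, which was not called (difference 0.08, limma adjusted p = 0.798). LNC_001821 was at 0.665, 0.337, 0.792, 0.972 and 1.01 FPKM in the luteal and 0.0307 to 0.150 in the follicular ovaries (difference 2.24, SE 0.32, limma adjusted p = 0.00129). It neighbours WNT11, a secreted ligand of Wnt signaling, which rose by 1.26 in the luteal phase (2.26 ± 1.18 against 0.784 ± 0.216 FPKM, limma adjusted p = 0.0176), and THAP12, which was not called (difference 0.02, limma adjusted p = 0.947). LNC_000682 was at 0.315, 0.361, 0.623, 0.457 and 0.267 FPKM in the luteal ovaries and, but for 0.0447 in follicular ovary 1, at 0 in the follicular ovaries (difference 2.19, SE 0.24, limma adjusted p = 0.000291). Its neighbour CCDC91 was higher in the luteal phase as well (29.0 ± 1.49 against 16.8 ± 1.43 FPKM, difference 0.79, limma adjusted p = 1.39e-05), and LOC108636029 on its other side was not called (difference 0.86, limma adjusted p = 0.238).

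LNC_002479 was at 1.18, 1.83, 1.01, 5.84 and 1.38 FPKM in the luteal and 0.690, 0.0452, 0, 0.0844 and 0.389 in the follicular ovaries (difference 2.90, SE 0.65, limma adjusted p = 0.0127). It differed in direction from its neighbour NR2F2, a nuclear receptor, which was lower in the luteal phase (15.9 ± 3.13 against 24.2 ± 2.79 FPKM, difference -0.61, limma adjusted p = 0.00292). On its other side lies MCTP2, which was not called (0.47, limma adjusted p = 0.0807).

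**Figure D4:**
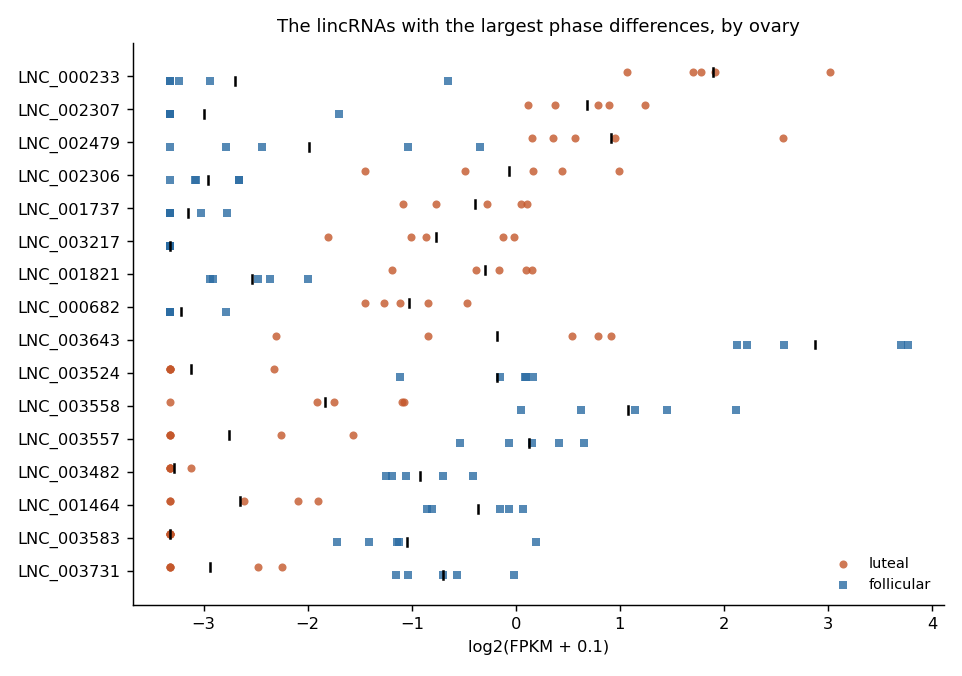
Level of the 8 luteal-higher and 8 follicular-higher lincRNAs with the largest differences among calls without overlap, as log2(FPKM + 0.1) (horizontal axis), with 1 point per ovary (circles luteal, squares follicular) and a black bar at each phase mean. Within each lincRNA the 2 phases are separate; many points at the left edge are ovaries listed at 0.

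Of the 8 follicular-higher lincRNAs with the largest differences among calls without overlap between phases, 7 lay on unplaced rows. LNC_003643 was the most abundant of them, with 1.35, 0.102, 0.458, 1.79 and 1.63 FPKM in luteal ovaries 1 to 5 and 4.57, 12.9, 5.88, 4.27 and 13.5 in follicular ovaries 1 to 5 (difference -3.06, SE 0.64, limma adjusted p = 0.00901). LNC_003558 was at 0.375, 0.367, 0.197, 0 and 0.165 FPKM in the luteal and 2.11, 4.23, 0.935, 2.63 and 1.44 in the follicular ovaries (difference -2.91, SE 0.51, limma adjusted p = 0.00365). LNC_003557, whose locus identifier is the one before that of LNC_003558, was at 0 to 0.238 FPKM in the luteal and 0.591 to 1.47 in the follicular ovaries (difference -2.88, SE 0.41, limma adjusted p = 0.00120).

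LNC_003524 was at 0 in luteal ovaries 1 to 4, at 0.0990 FPKM in luteal ovary 5, and at 0.363 to 1.02 in the follicular ovaries (difference -2.94, SE 0.33, limma adjusted p = 0.000279). LNC_003482 was above 0 in 1 luteal ovary, at 0.0150 FPKM, and at 0.321 to 0.652 in the follicular ovaries (difference -2.36, SE 0.22, limma adjusted p = 9.69e-05). LNC_003731 was at 0 to 0.111 FPKM in the luteal and 0.349 to 0.885 in the follicular ovaries (difference -2.24, SE 0.33, limma adjusted p = 0.00133). The one on a placed row, LNC_001464, was at 0 to 0.168 FPKM in the luteal and 0.455 to 0.952 in the follicular ovaries (difference -2.29, SE 0.36, limma adjusted p = 0.00218). Its flanking genes LOC108637087 and LOC102168735 had an FPKM of at most 0.0311 in any ovary and could not be tested.

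Some lincRNAs were paired with a protein-coding gene in the study, by co-expression or by position, and the values of both are set side by side here without a test of the pairing. DHRS12, a dehydrogenase paired with LNC_000233, was at 10.1 ± 2.69 FPKM in the luteal and 5.32 ± 1.25 in the follicular ovaries (difference 0.91, limma adjusted p = 0.00350). RPL36A, a ribosomal protein paired with LNC_003558, was at 1049 ± 112 and 1575 ± 247 FPKM (difference -0.58, limma adjusted p = 0.00392). CNOT10, a subunit of the deadenylase complex and also paired with LNC_003558, was at 13.4 ± 0.690 and 18.4 ± 1.63 FPKM (difference -0.45, limma adjusted p = 0.000767). LOC102175871, paired with LNC_003643, was at 563 ± 26.1 and 764 ± 86.8 FPKM (difference -0.43, limma adjusted p = 0.00369). Where a pair was chosen by co-expression in these ovaries, a shared direction follows from that choice.

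LincRNAs listed in 1 phase only were few. When 0.1 FPKM or more was required in all 5 ovaries of a phase and 0 in all 5 of the other, 5 lincRNAs were luteal-only and 5 were follicular-only (0.180% of the 2777 each, against 0.0394 and 0.0296% of mRNAs). The luteal-only share was higher for antisense lncRNAs (0.308%) and TUCPs (0.275%), neither of which had a follicular-only transcript by this rule. Leaving out 1 ovary gave 5 to 8 luteal-only lincRNAs (8 without luteal ovary 2 or 4 or follicular ovary 1 or 2) and 5 to 11 follicular-only lincRNAs (11 without luteal ovary 3, and 8 to 10 without luteal ovary 2 or 5 or follicular ovary 2, 3, 4 or 5). With any value above 0 in a phase accepted, 188 lincRNAs were luteal-only (6.77%, against 2.35% of mRNAs) and 524 were follicular-only (18.9%, against 5.66% of mRNAs). For antisense lncRNAs these shares were 4.52 and 12.2%, for TUCPs 3.37 and 4.20%, and for annotated lncRNAs 1.02 and 0.768%. The 5 luteal-only lincRNAs of the strict rule, with 0.1 FPKM or more in all 5 ovaries, all lay on placed rows. LNC_003217, which had the highest luteal mean of these 5, was at 0.396, 0.450, 0.818, 0.890 and 0.186 FPKM in the luteal ovaries. The others were LNC_001159 (0.180 to 0.582 FPKM), LNC_000069 (0.150 to 0.729), LNC_002364 (0.183 to 0.513) and LNC_001713 (0.248 to 0.400). TMEM200A, beside LNC_001159, was higher in the luteal phase (50.3 ± 6.71 against 15.8 ± 3.17 FPKM, difference 1.67, limma adjusted p = 9.92e-06), as was ADAMTS5, a protease of the extracellular matrix, beside LNC_000069 (6.37 ± 1.05 against 3.89 ± 1.08 FPKM, difference 0.73, limma adjusted p = 0.0108). N6AMT1, the other neighbour of LNC_000069, was not called (difference -0.10, limma adjusted p = 0.611). Beside LNC_001713, FAM92A1 was lower in the luteal phase (difference -0.52, limma adjusted p = 0.00339) and TRIQK was not called (0.10, limma adjusted p = 0.520). Beside LNC_002364, LOC102176361 was not called (difference -0.82, limma adjusted p = 0.111). The remaining neighbours had an FPKM of at most 0.0659 in any ovary and could not be tested. They were SMLR1 (LNC_001159), LOC102176073 (LNC_002364), and LOC102169947 and FOXR2 (LNC_003217).

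The 5 follicular-only lincRNAs of the strict rule all lay on unplaced rows. LNC_003583 was at 0.277, 1.04, 0.358, 0.352 and 0.204 FPKM in the follicular ovaries. LNC_003416 (0.210 to 0.475 FPKM), LNC_003728 (0.141 to 0.396), LNC_003597 (0.107 to 0.502) and LNC_003581 (0.141 to 0.283) were lower. These 10 lincRNAs of the strict rule reached at most 1.04 FPKM in any ovary, and no fold is given against a phase listed at 0.

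Over all placed rows, the flanking genes of called lincRNAs were counted by their own direction. Among the 57 luteal-higher lincRNAs, 30 (52.6%) had a flanking gene that was luteal-higher and 14 (24.6%) one that was follicular-higher. Among the 66 follicular-higher lincRNAs, 10 (15.2%) had a luteal-higher and 39 (59.1%) a follicular-higher flanking gene. Over all 904 tested lincRNAs on placed rows these shares were 25.3 and 51.1%, and of all 15360 protein-coding genes tested 43.7% were called, 15.9% luteal-higher and 27.8% follicular-higher. The share with a luteal-higher neighbour was thus 52.6% for luteal-higher lincRNAs beside 25.3% for all those tested, and these shares were compared without a test. Row order does not give the distance to the neighbour.

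The 2777 lincRNAs came from 2428 loci. At 2171 loci 1 lincRNA was assembled, and the other 257 held 606 lincRNAs. At 5 loci 2 or more lincRNAs were called, and the calls of each of these loci went in 1 direction. The 3 loci with the most lincRNAs are described below, and other loci with more than 1 transcript held steady lincRNAs, such as LNC_002540. Locus XLOC_224475, on an unplaced row, held 6 lincRNAs among 14 transcripts. LNC_003295 was at 47.3, 30.8, 51.4, 0.340 and 0.101 FPKM in the luteal and 118, 0.142, 0.304, 145 and 183 in the follicular ovaries. LNC_003294 was at 109, 10.1, 88.6, 33.8 and 28.7 FPKM in the luteal and 21.2, 26.2, 0, 186 and 26.2 in the follicular ovaries. Neither followed phase (limma adjusted p = 0.802 and 0.541). LNC_003293 was at 54.1 FPKM in luteal ovary 5, LNC_003297 at 42.3 in luteal ovary 2 and LNC_003298 at 23.1 in luteal ovary 4, and each was at 2.84 or less in all other ovaries. LNC_003296 was at 21.5 and 45.3 FPKM in follicular ovaries 1 and 5 and at 0.422 or less elsewhere.

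**Figure D5:**
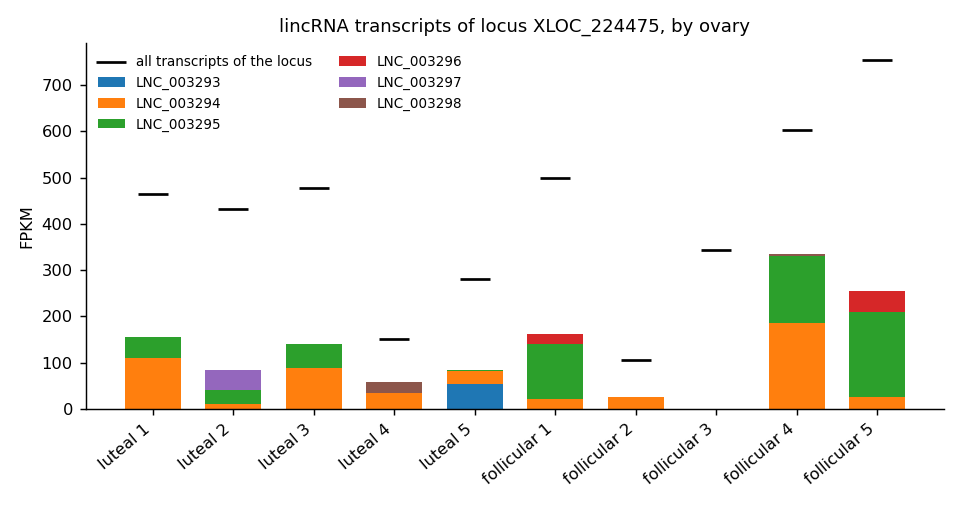
FPKM (vertical axis) of the 6 lincRNA transcripts of locus XLOC_224475 in each ovary as stacked bars, with a black line at the sum of all 14 transcripts of the locus. The lincRNA sum runs from 0.50 in follicular ovary 3 to 335 in follicular ovary 4, while the sum of all transcripts runs from 105 to 754.

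The sum of the 6 lincRNAs had an SD of 2.62 on the log2 scale over the 10 ovaries, and the sum of all 14 transcripts one of 0.89. The same held at the other loci with the most lincRNAs. At XLOC_229373, with 7 lincRNAs of 12 transcripts, the SDs were 1.83 and 1.15, and at XLOC_169782, the locus of LNC_002479, with 7 of 9, they were 1.41 and 0.57. LNC_003604 was the lincRNA of XLOC_229373 that was called, at 0.803, 0.434, 1.06, 0 and 0.0413 FPKM in the luteal and 0.513, 15.8, 3.01, 2.08 and 8.45 in the follicular ovaries. Its ranges overlapped (difference -3.23, SE 0.96, limma adjusted p = 0.0439), and the call was lost under most alternative settings. The authors' software divides the fragments of a locus among its transcripts, so the sum of a locus and the value of 1 transcript can differ in this way, and the part of that division here was not tested.

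The spread within a phase depended on level. For a mean FPKM of 0.2 to 0.5, the median SD within a phase on the log2 scale was 0.63 for 501 lincRNAs and 0.76 for mRNAs. For a mean FPKM of 2 to 10 it was 0.95 for 28 lincRNAs, 1.28 for 63 TUCPs, 0.35 for annotated lncRNAs and 0.35 for mRNAs. At this level the median spread of lincRNAs and TUCPs within a phase was thus above that of mRNAs, a difference described here without a test.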

How the data were processed

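Total RNA of whole ovaries was depleted of ribosomal RNA, made into strand-specific paired-end libraries and sequenced. The authors aligned reads with HISAT2, assembled them with StringTie, removed transcripts with coding potential and computed FPKM per transcript with Cuffdiff; the deposited values are these FPKM, without counts. The authors' methods state a filter at an FPKM of 0.5, but 1780 of the 2777 lincRNAs stay below that value in every ovary of the deposited table, so the scale or sample to which that filter applied is unclear. The genome build is not named in words in the sources used here. The mRNA and annotated lncRNA tables repeat rows of the transcript table and were not used separately.

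Here, log2(FPKM + 0.1) of the 32842 transcripts that reached an FPKM of 0.1 in 5 or more of the 10 ovaries was compared between phases with limma 3.58.1 (R 4.3.3; lmFit, eBayes with trend, two-sided), with Benjamini-Hochberg adjustment over all of them and calls at an adjusted p below 0.05. This replaces the authors' count-based test, since FPKM are not counts. Genes were tested on the sum of their transcripts. Values per ovary were compared between phases with two-sided exact permutation tests. Class medians were compared with two-sided exact sign tests over the ovaries (scipy 1.17.1). The scripts were tested on simulated data. The table holds neither counts nor the mapped total of a library, so no counting interval is given. Relative depth was read from the smallest steps among FPKM below 0.05 of 11901 single-transcript genes, and all 45 pairs of ovaries gave the same scale. Whole fragments could not be recovered for lincRNAs.

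The lincRNAs named were the 8 largest differences per direction among calls without overlap, the 5 most abundant, up to 5 per phase listed in 1 phase only, those named by the study, the 3 highest seen in 1 ovary, the 3 steadiest with a mean FPKM of at least 1, the members of the 3 loci with the most lincRNAs, and the 3 most abundant called and not called. LNC_003304 and TUCP_000379 were added after their values were seen. The lincRNAs, marker lists and comparisons were chosen with earlier results of these data known. The split by placed and unplaced rows was made after the data were seen. Alternatives were other pseudocounts, filters, scalings, thresholds, a replicate block, locus sums, each ovary left out, and ovaries of like depth.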

Additional observations from a re-analysis of the deposited data

Results flagged for a closer look

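In a group of 5 ovaries, 1 value can lie far from the other 4. The gap to the nearest other ovary, divided by the range of the group, exceeded Dixon's critical value of 0.71 in 23 of 97 groups of named lincRNAs and values per ovary. Chance flags about 1 in 20 groups of evenly spread values, and a group with 4 ovaries at 0 is flagged at any level above 0.

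Among luteal ovaries, LNC_000233 was at 7.99 FPKM in ovary 2 against 2.00 to 3.66 in the others, LNC_002479 at 5.84 in ovary 4 against 1.01 to 1.83, LNC_003602 at 2.51 in ovary 1 against 0 to 0.591, and LNC_003603 at 1.44 in ovary 1 against 0.108 to 0.337. With the other 4 luteal ovaries at 0, LNC_003524 was at 0.0990 in ovary 5, LNC_003482 at 0.0150 in ovary 3, LNC_002475 at 4.99 in ovary 3, LNC_002749 at 1.17 in ovary 1, LNC_003293 at 54.1 in ovary 5 and LNC_003298 at 23.1 in ovary 4. LNC_003297 was at 42.3 in ovary 2 and at most at 0.000263 in the others.

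Among follicular ovaries, LNC_000233 was at 0.538 FPKM in ovary 5 against at most 0.0299 in the others, LNC_003583 at 1.04 in ovary 2 against 0.204 to 0.358, and LNC_003294 at 186 in ovary 4 against 0 to 26.2. LNC_003602 was at 2.25 in ovary 1 against 0.0826 to 0.651, LNC_002474 at 1.71 in ovary 3 against 0.00281 to 0.124, LNC_002477 at 1.45 in ovary 1 against at most 0.201, and LNC_002478 at 2.54 in ovary 4 against at most 0.215. With the other 4 follicular ovaries at 0, LNC_002307 was at 0.208 in ovary 2, LNC_000682 at 0.0447 in ovary 1, LNC_000702 at 1.55 in ovary 2, LNC_003293 at 0.000930 in ovary 2 and LNC_003298 at 2.84 in ovary 4.

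Of the 23 values, 14 belong to lincRNAs of the 3 loci with the most lincRNAs. No ovary stood apart in the number of lincRNAs detected, their median FPKM or their share of the summed FPKM.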

How the results depend on the processing

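The 190 called lincRNAs became 154 to 213 under other pseudocounts, scalings, no filter, no trend, a 2-fold minimum or locus sums. They became 35 with an FPKM of at least 0.5 in 5 ovaries (150 tested), 66 at an adjusted p below 0.01 and 375 at an unadjusted p below 0.05. Without 1 ovary they were 137 to 194 over the transcripts tested in all ovaries, and 113 (luteal ovary 4) to 171 with the filter reapplied, an alternative chosen after seeing the data, as were ovaries of like depth (51, or 42 with the filter reapplied). With the filter reapplied, luteal-higher calls (58) were 25 to 34 without luteal ovary 1, 2, 3, 4 or 5, and follicular-higher calls (132) were 85 without follicular ovary 1. Over the transcripts tested in all ovaries, the luteal-higher calls were 46 to 56 without a luteal ovary. On unplaced rows the 66 follicular-higher calls were 47 to 83 without 1 ovary, and 38 to 69 with the filter reapplied (41, 38 and 39 without follicular ovaries 1, 2 and 4). On placed rows the 66 follicular-higher and 57 luteal-higher calls were 41 (luteal ovary 5; 43 without luteal ovary 4) to 77 and 45 to 55, and 42 to 76 and 25 to 54 with the filter reapplied.

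The replicate block gave 128 calls. Deviations of same-numbered ovaries correlated at -0.01 to 0.05. Such correlations cannot show whether same-numbered ovaries shared a goat or a day, and the labels do not say.

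Detection differed by -384 to -295 lincRNAs and the median FPKM by -0.0768 to -0.0595 without 1 ovary, past the threshold each time. The share of summed FPKM differed by -0.0596 to -0.0389 percentage points and missed the threshold in 7 of 10 such repeats, and by -0.0522 at like depth (exact p = 0.0952). The lower median against antisense lncRNAs held in 8 of 10 ovaries after the filter (exact p = 0.109), and against each class in all ovaries when 1 was left out (9 of 9). Luteal-only and follicular-only lincRNAs were 12 and 14 with a value above 0 in all 5 ovaries of a phase, 0 and 0 at 0.5, 15 and 22 with 4 of 5 ovaries, 22 and 16 with values below 0.1 allowed in the other phase, and 5 to 8 and 5 to 11 without 1 ovary (8 without luteal ovary 2 or 4 or follicular ovary 1 or 2, and 8 to 11 without luteal ovary 2, 3 or 5 or follicular ovary 2, 3, 4 or 5).

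Of the 28 called lincRNAs named, none changed sign under any alternative run. Without 1 ovary 2 lost the call, LNC_000829 and LNC_003604, and at like depth 9. Without 1 ovary, uncalled lincRNAs changed sign, with differences of -0.07 to 0.80 for LNC_000949, -2.53 to 0.11 for LNC_003295, -0.04 to 2.68 for LNC_003294, -0.01 to 0.64 for LNC_000890 and -0.17 to 0.01 for LNC_002540, which was also 0.00 on the median-shift and TPM scales. Depth limits values near 0, and how far it does so for lincRNAs could not be computed from FPKM.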
